A study of Arabidopsis thaliana with 20 samples.

Results

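Gibberellin 2-oxidases are the enzymes that take gibberellin (GA) out of action by hydroxylating it. The 7 genes described here, GA2ox1, GA2ox2, GA2ox3, GA2ox4, GA2ox6, GA2ox7 and GA2ox8, were taken by their gene identifiers out of the 33557 genes in the table. Levels were measured by mRNA sequencing in *Arabidopsis thaliana* seeds 20 hr after they were placed on medium. WT seeds (Col-0) were compared with *Δdella* seeds, which carry mutations in all 5 DELLA genes (*RGL2*, *RGA*, *GAI*, *RGL1* and *RGL3*). Each genotype was kept on 5 media: MS, a plain mineral salt medium without additions, PAC (5 µM paclobutrazol, an inhibitor of GA synthesis), PAC + GA (5 µM PAC with 10 µM GA), *PAO1* extract (0.7 mg/ml), or *PAO1* extract + GA (0.7 mg/ml with 10 µM GA). The extract was lyophilized culture medium of the bacterium *Pseudomonas aeruginosa* strain PAO1, freed of cells by filtration. The bacterium itself was not on the plates.

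The 20 samples formed 10 groups of 2 biological replicates, and the values are FPKM, read fragments scaled to transcript length and library size, 1 value per gene and group pooled over both replicates. No spread between replicates, standard error or test could therefore be given for any value below, and neighbouring levels cannot be called different beyond error. The depth behind each value is unknown. Summed FPKM over all genes ranged from 882351 to 988764 among the groups, and 16310 to 16776 genes stood at 1 FPKM or more. The 5 DELLA transcripts together summed to 277 to 438 FPKM in the WT groups and to 52.0 to 61.8 FPKM in the *Δdella* groups, without overlap. Transcripts of the mutated genes were thus lower but not missing in the mutant. Of the markers of green seedling tissue, *CA1* (carbonic anhydrase) was listed at 0 in 9 groups and stood at 0.046 FPKM in *Δdella* seeds on extract. *LHCB1.1* (a light-harvesting protein) stayed between 0.024 and 0.306 FPKM, whereas *RBCS1A* (the Rubisco small subunit) was abundant everywhere, at 1153 FPKM or more.

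Bioactive GAs drive germination by triggering the destruction of DELLA proteins, which act as repressors of germination. GA 2-oxidases add a hydroxyl group at carbon 2 of the GA skeleton. A bioactive GA changed in this way is no longer bound well by the GA receptor. Members need not share a substrate, and which GA each acts on was not examined here. GA synthesis and inactivation genes are under feedback in growing tissue, where GA lowers transcripts of GA 20-oxidases and GA 3-oxidases and raises transcripts of several GA 2-oxidases. In seeds, *GA2ox2* is known as a gene that red light represses through phytochrome and its interacting factor PIF1 (PIL5).

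Genes were placed on RefSeq's TAIR10.1 annotation, whose genes overlapped the deposited TAIR10 interval on the same chromosome for 26687 of 26687 nuclear protein-coding genes matched. Coordinates are 1-based. *GA2ox1* (AT1G78440) lies at chr1:29511561-29513100 on the minus strand. The other members lie on the plus strand: *GA2ox2* (AT1G30040) at chr1:10537457-10540044, *GA2ox3* (AT2G34555) at chr2:14556988-14558857, *GA2ox4* (AT1G47990) at chr1:17698598-17701041, *GA2ox6* (AT1G02400) at chr1:486800-489651, *GA2ox7* (AT1G50960) at chr1:18889473-18891838 and *GA2ox8* (AT4G21200) at chr4:11302682-11306770. Each is a protein-coding gene of 2 or 3 exons with a coding sequence of 966 to 1026 bases, and none overlaps another annotated gene. The table names AT1G02400 ATGA2OX4, as it does AT1G47990, whereas RefSeq names AT1G02400 GA2OX6. The identifier was followed here.

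*GA2ox2* and *GA2ox8* were the members whose levels reached 1 FPKM in any group, and the 250 bases before their annotated starts are shown here because the expression differences below concern these genes. The letters come from the RefSeq TAIR10.1 genome, at chr1:10537207-10537456 for *GA2ox2* and chr4:11302432-11302681 for *GA2ox8*, both on the plus strand and 5′ to 3′. Capitals mark matches on either strand to any of 4 short motifs. The G-box, to which PIF factors bind, reads CACGTG. The core of the elements that answer to abscisic acid (ABA) reads ACGTG, and lies within every G-box too. A GA-responsive element known from cereal seeds reads TAACAAA. The site bound by the IDD zinc finger factors, partners of DELLA proteins, reads TTTGTC.
GA2ox2: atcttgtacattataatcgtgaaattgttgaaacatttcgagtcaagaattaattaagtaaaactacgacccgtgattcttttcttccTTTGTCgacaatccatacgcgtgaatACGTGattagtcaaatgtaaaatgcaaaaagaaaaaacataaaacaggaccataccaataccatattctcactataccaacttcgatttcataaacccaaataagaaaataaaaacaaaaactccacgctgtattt
GA2ox8: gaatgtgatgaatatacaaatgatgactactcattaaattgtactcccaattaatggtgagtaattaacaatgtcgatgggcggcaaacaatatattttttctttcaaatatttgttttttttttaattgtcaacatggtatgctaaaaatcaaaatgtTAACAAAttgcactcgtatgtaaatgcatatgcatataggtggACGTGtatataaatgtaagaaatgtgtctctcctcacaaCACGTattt

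The *GA2ox2* window held 1 match to ACGTG, beginning 136 bases before the gene's start, and 1 match to TTTGTC, beginning 162 bases before it. The *GA2ox8* window held 2 matches to ACGTG, beginning 48 and 9 bases before the start, and 1 match to TAACAAA beginning 91 bases before it. Neither window held CACGTG. Among 27443 windows of the same length before protein-coding genes, ACGTG occurred in 22.9%, TTTGTC in 24.1%, TAACAAA in 16.1% and CACGTG in 6.49%. Over the 7 members, ACGTG occurred before 4, TTTGTC before 4, TAACAAA before 3 and CACGTG before 1 (*GA2ox4*). A match describes the letters and says nothing of binding.

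*GA2ox2* was higher in *Δdella* than in WT seeds on every medium. In WT seeds it stood at 0.759 FPKM on MS, 0.720 on PAC, 1.06 on PAC + GA, 1.60 on extract and 1.75 on extract + GA. In *Δdella* seeds it stood at 2.46 FPKM on MS, 2.45 on PAC, 2.42 on PAC + GA, 2.96 on extract and 2.56 on extract + GA. The highest WT level (1.75) lay below the lowest *Δdella* level (2.42), so the genotypes did not overlap over the media. The same held, with *Δdella* higher, for 18.3% of the genes that reached 1 FPKM in some group, and in either direction for 36.4%. Among WT groups the order from low to high was PAC, MS, PAC + GA, extract, extract + GA.

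*GA2ox8* was listed at 0 in WT seeds on PAC and in no other group. In WT seeds it stood at 1.16 FPKM on MS, 0 on PAC, 1.20 on PAC + GA, 1.77 on extract and 1.96 on extract + GA. In *Δdella* seeds it stood at 2.20 FPKM on MS, 1.38 on PAC, 1.87 on PAC + GA, 2.17 on extract and 2.01 on extract + GA. The genotypes overlapped: the *Δdella* level on PAC was below the WT levels on both extract media. The lowest *Δdella* level, like the lowest WT level, was on PAC. A level of 1.16 FPKM was modest, since 51.73% to 54.64% of all genes had a lower FPKM than *GA2ox8* in the groups where it was above 0.

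*GA2ox6* was detected in every group at under 0.5 FPKM. In WT seeds it stood at 0.0595 FPKM on MS, 0.0768 on PAC, 0.0954 on PAC + GA, 0.177 on extract and 0.458 on extract + GA. In *Δdella* seeds it stood at 0.204 FPKM on MS, 0.156 on PAC, 0.165 on PAC + GA, 0.352 on extract and 0.363 on extract + GA. In both genotypes the 2 extract media had the highest levels.

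The remaining members were at or near the lower limit of the table. *GA2ox7* was listed at 0 in all 10 groups. *GA2ox1* was listed at 0 in 8 groups and stood at 0.0331 FPKM in WT and 0.0511 FPKM in *Δdella* seeds on MS. *GA2ox4* was listed at 0 in all 5 WT groups and on extract in *Δdella* seeds, and otherwise stood between 0.0265 and 0.124 FPKM. *GA2ox3* stood between 0.0255 and 0.101 FPKM in 7 groups and was listed at 0 in the other 3. For scale, genes within 10% of the spliced length of each member other than *GA2ox2* were taken. The lowest 5% of their values above 0 lay under 0.0408 to 0.0619 FPKM, depending on member and group. Most levels of *GA2ox1*, *GA2ox3* and *GA2ox4* were listed at 0 or lay under this cut, and the rest were low too. No comparison is made with these genes.

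**Figure D1:**
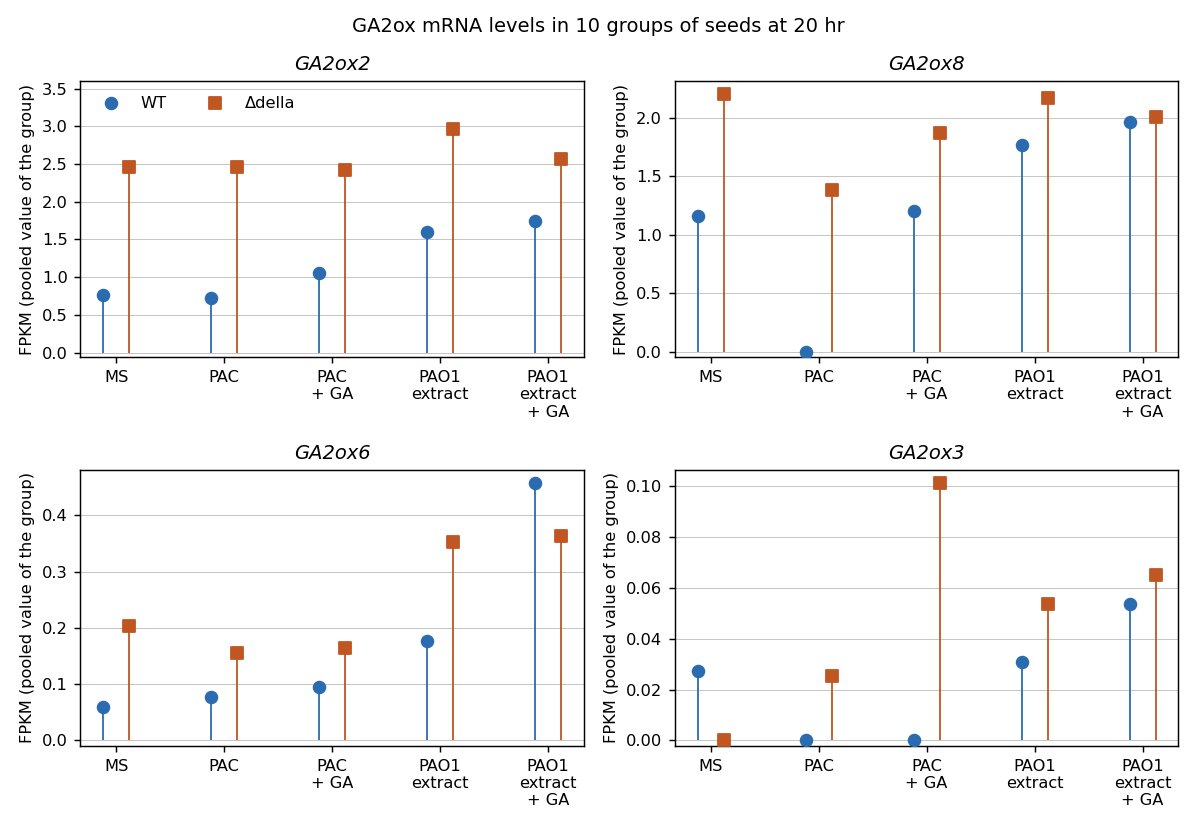
FPKM (vertical axes, each panel on its own scale) of *GA2ox2*, *GA2ox8*, *GA2ox6* and *GA2ox3* on the 5 media in WT (circles) and *Δdella* seeds (squares), 1 pooled value per group with no error. *GA2ox2* ran from 0.720 to 1.75 FPKM in WT and from 2.42 to 2.96 FPKM in *Δdella* seeds, and *GA2ox8* was listed at 0 in WT seeds on PAC.

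Because FPKM is per length, the members can be set against each other within a group. Their summed level was 0.797 FPKM in WT seeds on PAC, 2.04 to 4.22 FPKM in the other WT groups and 4.05 to 5.54 FPKM in the *Δdella* groups. *GA2ox9*, a further 2-oxidase gene read below, is not in this sum or in the shares. It stood at 0.570 FPKM on MS and 4.13 on PAC in WT seeds, and at 0.280 to 0.524 FPKM in the *Δdella* groups. *GA2ox2* made up 37.2% of the sum in WT seeds on MS and *GA2ox8* 56.9%. On PAC, *GA2ox2* made up 90.4% of the WT sum and *GA2ox6* the other 9.64%. In *Δdella* seeds *GA2ox2* made up 49.3% to 60.6% and *GA2ox8* 34.1% to 44.2%. *GA2ox2* thus held the larger share in all 5 *Δdella* groups, whereas *GA2ox8* was ahead in 4 of 5 WT groups. When each FPKM was weighted by spliced length, *GA2ox2* was ahead in 10 of 10 groups, its spliced length of 2014 bases being well above the 1255 bases of *GA2ox8*.

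**Figure D2:**
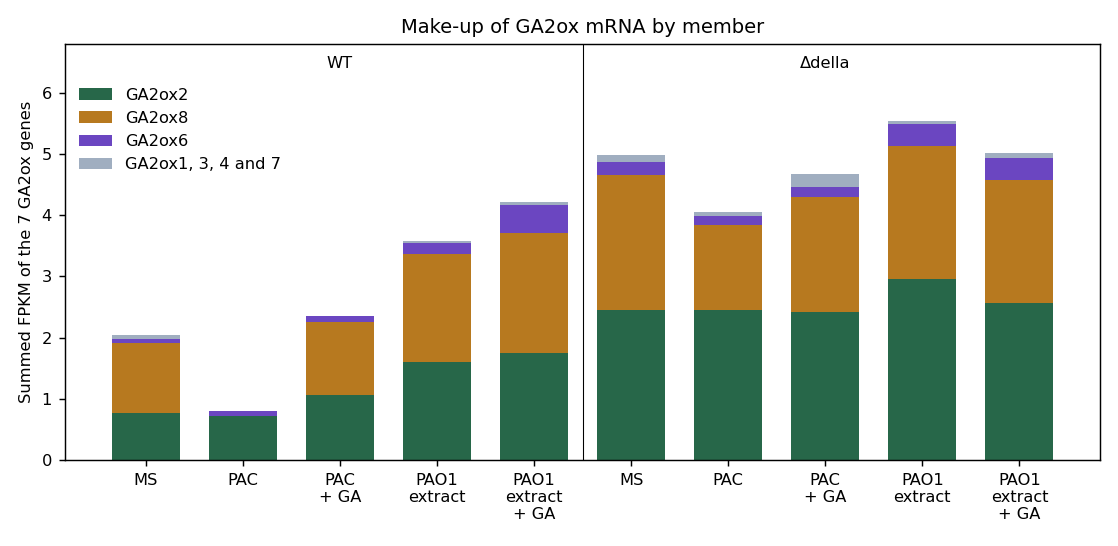
Summed FPKM of the 7 member genes in each of the 10 groups, stacked by member, without error as values were pooled. *GA2ox9*, at 4.13 FPKM in WT seeds on PAC, is not in the sum. The sum was lowest in WT seeds on PAC (0.797 FPKM), where *GA2ox8* was listed at 0, and highest in *Δdella* seeds on extract (5.54 FPKM).

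To ask how the members responded, 17 comparisons between groups were made. A gene was counted as higher or lower when its FPKM differed at least 2-fold and reached 1 FPKM in the higher group. Members counted in each comparison are read against the share of all genes with at least 1 FPKM in the higher group that met the same rule in either direction. *GA2ox1*, *GA2ox3*, *GA2ox4*, *GA2ox6* and *GA2ox7* could not be counted, as they were under 1 FPKM in all groups. Several comparisons share a group, WT seeds on MS in particular, and are not independent.

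PAC was used to ask what happens when GA synthesis is blocked. In WT seeds 1 of 7 members was counted on PAC against MS, *GA2ox8*, lower (1.16 FPKM to a listed 0), where 11.4% of 16846 genes were counted. Of these genes 0.32%, *GA2ox8* among them, were listed at 0 on PAC. Adding GA to PAC brought *GA2ox8* to 1.20 FPKM, which was 1.04-fold its level on MS, and it was the 1 member counted on PAC + GA against PAC, where 8.00% of genes were counted. No member was counted on PAC + GA against MS (2.06% of genes). Of genes whose higher level was 1 to 5 FPKM, 22.1% were counted on PAC against MS. On PAC + GA against PAC 17.3% of such genes were counted. *GA2ox2* on PAC was close to its level on MS (log2 ratio -0.08, both groups under 1 FPKM) and was 1.47-fold higher on PAC + GA than on PAC.

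The 0 of *GA2ox8* in WT seeds on PAC is a single pooled value. Among genes of like spliced length the lowest 5% of values above 0 in this group lay under 0.0522 FPKM, well under the 1.16 FPKM seen on MS. It was not the one gene with such a 0: 11 genes, *GA2ox8* among them, were listed at 0 in WT seeds on PAC while at 1 FPKM or more in the other 9 groups, against 0 to 4 genes for each of the other groups. A listed 0 can also be a value that could not be estimated, and the values of the replicates were not analysed here. No fold change is therefore given against it.

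In *Δdella* seeds no member was counted on PAC against MS (1.38% of genes), PAC + GA against PAC (1.39%) or PAC + GA against MS (1.26%). *GA2ox8* was 1.60-fold lower on PAC than on MS and 1.35-fold higher on PAC + GA than on PAC, the same directions as in WT. Its log2 ratio on PAC against MS was -0.67. A ratio at least as low was found in 1.31% of genes with 1 FPKM or more in the higher group. With 0.1 FPKM added the log2 ratio of *GA2ox8* was -0.64. That was inside the middle 95% of such ratios (-0.804 to 0.754) among genes at 1 to 5 FPKM in this comparison. *GA2ox2* differed little among all *Δdella* media, its log2 ratios lying between -0.21 and 0.27 in the 6 comparisons within this genotype. Whether PAC acted differently on the genotypes was not tested.

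The extract was compared with MS to ask how early transcripts stand in seeds exposed to it. In WT seeds 1 of 7 members was counted on extract against MS, *GA2ox2*, 2.11-fold higher (0.759 to 1.60 FPKM, log2 1.08), where 2.94% of genes were counted. On extract + GA it was 2.30-fold above MS (1.75 FPKM), where 3.08% of genes were counted. A ratio at least as high was found in 1.62% of genes on extract and in 1.20% on extract + GA. With 0.1 FPKM added to both values, the log2 ratio on extract was 0.98, and the gene was no longer counted. Low genes were counted more often than others: among genes whose higher level was 1 to 5 FPKM, 7.30% were counted on extract against MS and 8.05% on extract + GA against MS.

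*GA2ox8* was 1.52-fold higher on extract than on MS in WT seeds and 1.69-fold higher on extract + GA, and was not counted. *GA2ox6* was 2.98-fold higher on extract and 7.70-fold higher on extract + GA (0.0595, 0.177 and 0.458 FPKM), at levels too low to be counted. No member was counted on extract + GA against extract (2.59% of genes), where *GA2ox2* was 1.09-fold higher. *GA2ox2*, *GA2ox6* and *GA2ox8* thus each stood in the order MS, extract, extract + GA in WT seeds.

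In *Δdella* seeds no member was counted on extract against MS (2.91% of genes), extract + GA against extract (1.32%) or extract + GA against MS (2.65%). *GA2ox2* stood at 2.46 FPKM on MS and 2.96 on extract, and *GA2ox8* at 2.20 and 2.17. *GA2ox6* was 1.73-fold higher on extract and 1.78-fold higher on extract + GA than on MS, at under 0.4 FPKM.

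The genotypes were compared on each medium to ask how the members' transcripts stand without DELLA factors. *GA2ox2* was 3.24-fold higher in *Δdella* than in WT seeds on MS (log2 1.69), where 9.43% of genes were counted and 3.08% had a ratio at least as high. It was 3.41-fold higher on PAC (21.4% of genes counted) and 2.29-fold higher on PAC + GA (11.4% counted). A ratio at least as high was found in 7.08% of genes on PAC and 5.8% on PAC + GA. On extract *GA2ox2* was 1.85-fold higher (10.1% of genes counted) and on extract + GA 1.46-fold higher (6.79% counted), and was not counted on either. Ratios at least as high were found in 7.63% and 10.21% of genes. The ratio was thus smallest on the media with extract, where the WT level was highest. Among genes whose higher level was 1 to 5 FPKM, 22.1% were counted on MS and 38.9% on PAC. Set against such genes with 0.1 FPKM added, the log2 ratio of *GA2ox2* lay inside the middle 95% in all 17 comparisons, and that of *GA2ox8* in the 14 comparisons without its listed 0.

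*GA2ox8* was counted on PAC alone, where it stood at 1.38 FPKM in *Δdella* seeds and was listed at 0 in WT. On the other media it was 1.90-fold higher in *Δdella* seeds on MS, 1.56-fold on PAC + GA, 1.23-fold on extract and 1.02-fold on extract + GA. *GA2ox6* was 3.42-fold higher in *Δdella* seeds on MS and 2.03-fold on PAC, and 1.26-fold higher in WT seeds on extract + GA, all at under 0.5 FPKM. With 0.1 FPKM added, its log2 ratios of *Δdella* to WT on these media were 0.93, 0.53 and -0.27.

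**Figure D3:**
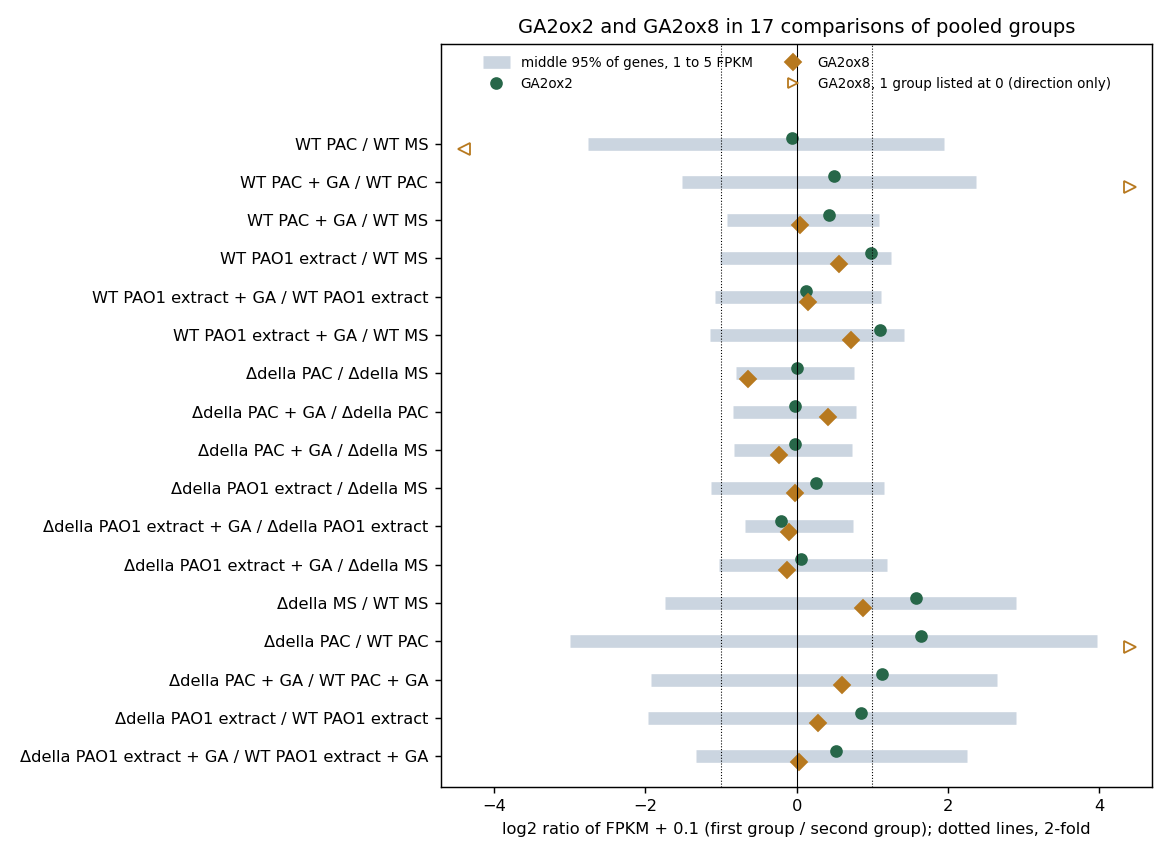
Log2 ratios of FPKM with 0.1 added (horizontal axis) for *GA2ox2* (circles) and *GA2ox8* (diamonds) in the 17 comparisons, with bars for the middle 95% of genes whose higher level was 1 to 5 FPKM and dotted lines at 2-fold. Each filled point, from 1 pooled value per group without error, lies inside its bar, and open triangles at the edge give only the direction of the 3 comparisons with the listed 0 of *GA2ox8*.

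Further genes of GA inactivation were read from a list of 6. It holds *GA2ox9* and *GA2ox10*, further genes of the 2-oxidase family, *GAMT1* and *GAMT2*, which encode GA methyltransferases, and *ELA1* and *ELA2*, which encode cytochrome P450 enzymes of the CYP714 family. On PAC against MS in WT seeds 2 of 6 were counted, both higher, where 11.4% of all genes were counted. *GA2ox9* (AT5G58660) stood at 0.570 FPKM on MS, 4.13 on PAC and 1.22 on PAC + GA in WT seeds, 7.24-fold higher on PAC than on MS. In *Δdella* seeds it stood between 0.280 and 0.524 FPKM on the 5 media, and on PAC it was 7.88-fold lower than in WT. *ELA1* (AT5G24910) stood at 6.61 FPKM on MS and 17.9 on PAC in WT seeds, 2.71-fold higher. In *Δdella* seeds on MS it stood at 2.45 FPKM, 2.70-fold lower than in WT and the 1 gene of the list counted in that comparison. Of all genes, 9.43% were counted there. The remaining 4 genes of the list stayed at 0.329 FPKM or less in every group.

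Genes of GA synthesis and perception were read in the same way on PAC against MS in WT seeds, where 11.4% of all genes were counted. Of the late synthesis genes, 4 of 9 were counted, all higher: the GA 20-oxidases *GA20ox1* (15.5 to 51.3 FPKM), *GA20ox2* (5.43 to 71.9 FPKM) and *GA20ox3* (53.7 to 444 FPKM) and the GA 3-oxidase *GA3ox1* (22.4 to 93.9 FPKM), which makes the bioactive forms. *GA3ox2*, another GA 3-oxidase, stood at 122 FPKM on MS and 94.6 on PAC, and *GA20ox4*, *GA20ox5* and *GA3ox3* were listed at 0 in both groups. Of the early genes 2 of 5 were counted, both higher: *GA1*, for the first step from geranylgeranyl diphosphate (0.240 to 3.16 FPKM), and *GA3*, for ent-kaurene oxidase (86.1 to 177 FPKM). Of the perception genes 2 of 4 were counted, the GA receptors *GID1A* (22.2 to 49.5 FPKM) and *GID1B* (1.77 to 6.29 FPKM), both higher. On PAC + GA against PAC, 5 of 9 late synthesis genes were counted, all lower, where 8.00% of all genes were counted.

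On extract against MS in WT seeds, where *GA2ox2* was 2.11-fold higher, no gene of the other inactivation, early synthesis, late synthesis or perception lists was counted. *GA20ox1* and *GA3ox1* were lower there, by 1.63-fold and 1.61-fold. Of all genes, 2.94% were counted in that comparison. In *Δdella* against WT seeds on MS, where *GA2ox2* was 3.24-fold higher, 3 of 9 late synthesis genes were counted, all lower: *GA20ox1* 6.27-fold, *GA20ox2* 31.1-fold and *GA20ox3* 8.69-fold. *GA3ox1* and *GA3ox2* differed little there, at 20.6 against 22.4 FPKM and 115 against 122 FPKM. No early synthesis or perception gene was counted in that comparison, where 9.43% of all genes were counted.

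**Figure D4:**
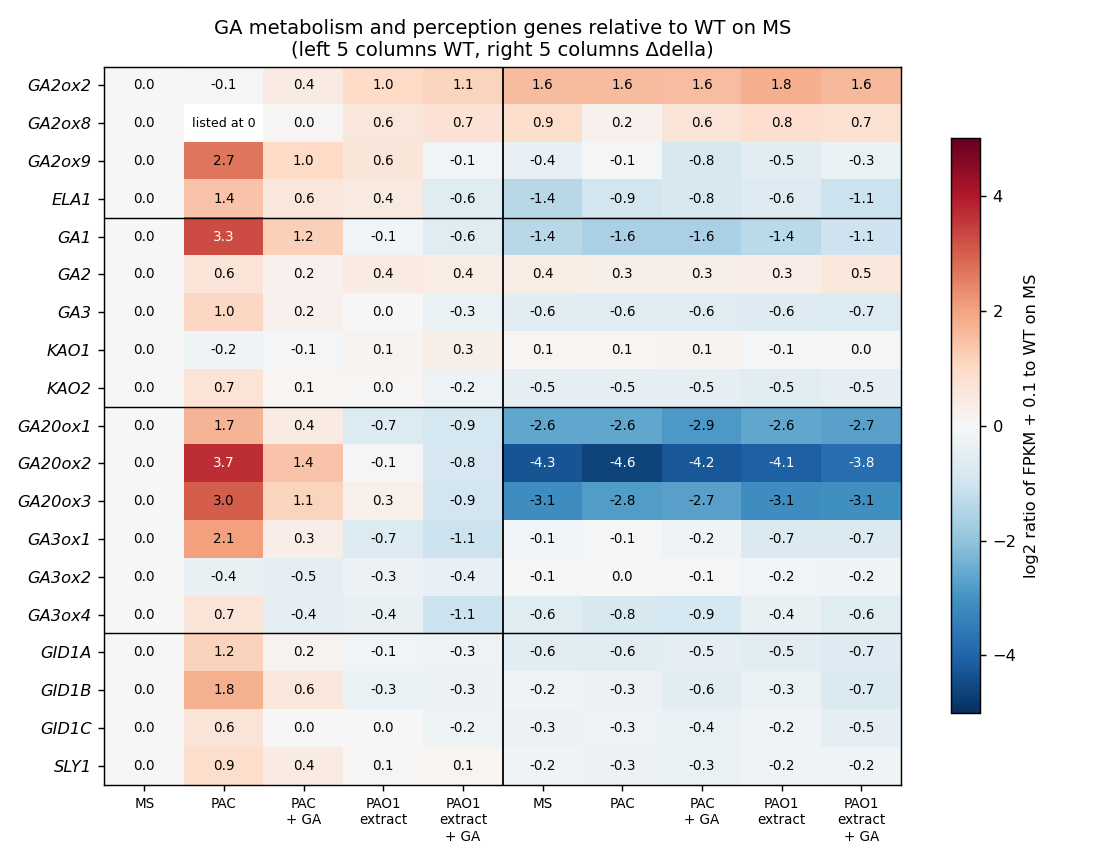
Heat map of log2 ratios to WT seeds on MS, with 0.1 FPKM added, for genes of GA inactivation, synthesis and perception (rows) on the 5 media in WT (left) and *Δdella* seeds (right), 1 pooled value per group without error. In WT seeds on PAC, *GA20ox3* reached 444 FPKM and *GA2ox9* 4.13 FPKM, while *GA2ox8* was listed at 0.

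Genes that mark seed maturation and germination also differed between some of these groups. For scale, 11.4% of all genes were counted on PAC and 2.94% on extract against MS in WT seeds. In *Δdella* against WT seeds on MS 9.43% were counted. The 5 storage and maturation genes (the storage proteins *CRU1* and *CRU3*, the oleosin *OLEO1*, *EM1* and the regulator *ABI3*) summed to 752 FPKM in WT seeds on MS, 8573 on PAC, 1507 on PAC + GA, 2634 on extract and 445 on extract + GA, and to 133 to 199.8 FPKM in the *Δdella* groups, and no gene of this list was listed at 0. On PAC against MS in WT seeds 4 of 5 were counted, all higher, and 2 of 3 genes for germinating endosperm and wall loosening were counted, both lower: *EXPA2*, an expansin, at 1579 and 338 FPKM, and *MAN7*, a mannanase, at 60.6 and 20.8 FPKM. The other gene of this list, *EPR1*, an extensin-like gene of the endosperm, stood at 932 and 1201 FPKM. On extract against MS in WT seeds 4 of 5 storage and maturation genes were counted, all higher, and none of the 3 endosperm genes. In *Δdella* against WT seeds on MS 4 of 5 storage and maturation genes were counted, all lower, and 1 of 3 endosperm genes, *EPR1*, was 2.59-fold lower (360 against 932 FPKM). The endosperm list summed to 1560 to 3230 FPKM in the WT groups and to 1835 to 2226 FPKM in the *Δdella* groups. Whole seeds were sampled, so that fewer cells of a type and less RNA per cell cannot be told apart. The part of seed stage or tissue makeup in the levels of *GA2ox2* and *GA2ox8* was not tested. On extract + GA in WT seeds the storage and maturation sum was below that on MS, but the genes were mixed. *CRU1*, *CRU3*, *OLEO1* and *ABI3* were lower, and *EM1* was higher (29.9 against 20.7 FPKM). Of the endosperm list, *EXPA2* and *MAN7* (95.9 against 60.6 FPKM) were higher there and *EPR1* was lower.

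Genes with the most similar pattern over the 10 groups were taken by Pearson's r of log2(FPKM + 1), among 14145 genes with at least 5 FPKM in some group. They are given as a description, since the groups share genotypes and media. For *GA2ox2* the 3 closest were AT1G19540 (r = 0.991), AT3G57280 (r = 0.985) and AT1G06515 (r = 0.983). AT1G19540 stood at 10.7 to 19.4 FPKM in the WT groups and 23.5 to 30.2 FPKM in the *Δdella* groups. For *GA2ox8* the 3 closest were AT5G07680 (*NAC080* in RefSeq, a NAC transcription factor gene, r = 0.985), *MLO4* (r = 0.977) and AT3G49890 (r = 0.977). *NAC080* was lowest in WT seeds on PAC, at 2.61 FPKM, and stood at 8.24 to 12.9 FPKM in the other 9 groups. With 0.1 FPKM added in place of 1, AT1G19540 was again the closest to *GA2ox2* (r = 0.991), whereas the 3 closest to *GA2ox8* were AT3G43430, *BGAL8* and *HMA4* (r = 0.99 for each). Between the members themselves, r was 0.76 for *GA2ox2* and *GA2ox8*, 0.65 for *GA2ox2* and *GA2ox6*, and 0.62 for *GA2ox6* and *GA2ox8*.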

How the data were processed

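Surface-sterilized seeds of WT (Col-0) and *Δdella* were kept on plates for 20 hr. RNA was made into TruSeq Stranded mRNA libraries and read as single-end 50 bp on a HiSeq4000. The authors aligned the reads (TopHat, TAIR10) and pooled the 2 replicates of a group in Cuffdiff, run on Galaxy. Tool versions, annotation and library scaling: not given in the sources used here. This deposited table, arranged by 45 pairs of groups, holds FPKM made by the authors, a single value for each gene in a group. Its columns of the authors' own comparisons (fold changes, test statistics, p and q) were not used. Depth is unknown, so no interval is given.

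Ratios of FPKM were computed for 17 comparisons in Python 3.11.15 (numpy 2.4.6, pandas 2.3.3), with no pseudocount, a 2-fold threshold and at least 1 FPKM in the higher group. The code of the rule was run on levels multiplied by a set factor without noise, which says nothing of how reliable the counts are. No significance test was run. Groups follow the sample titles and the group names in the table. Named genes are the 7 members, 48 genes of fixed lists and, for each member that reached 1 FPKM, the 3 genes most like it. Members and lists were chosen with earlier results of these data known. Alternatives were other minimums, folds, pseudocounts and scalings, and a weighting by length. Windows of 250 bases were read from the TAIR10.1 genome. Proteins were not analysed here.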

Additional observations from a re-analysis of the deposited data

How the results depend on the processing

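No paired analysis was possible because the deposited values are pooled over the 2 replicates of each group, and for the same reason no replicate could be left out. Of the 17 counts of members, all stayed the same with FPKM rescaled to the same sum in each group, with median ratio scaling, and with a minimum of 0.5 FPKM, an alternative chosen after seeing the data. With no minimum but both groups above 0, the count became 0 for WT PAC against MS and for PAC + GA against PAC, 2 for WT extract and WT extract + GA against MS, 1 for WT extract + GA against extract, and in *Δdella* seeds 2 for PAC + GA against PAC and 1 for extract + GA against MS, and 2 for *Δdella* against WT on MS. With a minimum of 5 FPKM it became 0 in the 7 comparisons that had a count, since no member reaches that level. At 1.5-fold it became 2 for WT extract and extract + GA against MS and for *Δdella* against WT on MS and on PAC + GA, and 1 for *Δdella* PAC against MS and *Δdella* against WT on extract. At 3-fold it became 0 for WT extract and extract + GA against MS and for *Δdella* against WT on PAC + GA. With 1 FPKM added it became 0 for these 3 and for *Δdella* against WT on MS (log2 0.97), and with 0.1 FPKM added it became 0 for WT extract against MS (log2 0.98). Of 192 log2 ratios of *GA2ox2*, *GA2ox6* and *GA2ox8* under the alternatives, 187 stayed counted or not counted as before. The other 5, all of *GA2ox2*, dropped under 2-fold and were no longer counted. *GA2ox6*, under 1 FPKM in all groups, could not be counted under any of these. With 0.1 FPKM added, its log2 ratio for WT extract against MS went from 1.57 to 0.80. Among the 7 members, *GA2ox2* led in 6 groups by FPKM and in 10 when weighted by length.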

Other observations

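Transcription factor genes reported to act on *GA2ox* genes or on GA metabolism in seeds were also read, as values only. *PIF1* stood at 77.9 FPKM on MS and 97.0 on PAC in WT seeds, and at 59.5 on MS in *Δdella* seeds. *SOM*, a zinc finger gene downstream of PIF1, stood at 126, 364 and 79.9 FPKM in the same groups. *SPT*, a bHLH factor of cold and light control of germination, stood at 50.4, 28.1 and 51.7 FPKM. *ABI4*, an AP2 factor of ABA responses, stood at 143, 41.7 and 131 FPKM. *DAG1*, a DOF factor, stood at 1.90, 1.35 and 2.61 FPKM, and *GAF1*, an IDD factor that works with DELLA proteins, at 3.14, 6.08 and 2.74 FPKM. *AGL15*, a MADS factor of embryos, stood at 6.08, 6.17 and 6.07 FPKM. *DDF1*, an AP2 factor that acts on *GA2ox7* under salt stress, stayed at 0.186 FPKM or less in every group, and *GA2ox7* was listed at 0 in all 10.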
